A study of Rattus norvegicus with 48 samples.

Results

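Amlexanox is an anti-inflammatory and anti-allergic drug that blocks the kinases TBK1 and IKKε. Its effect on its own on rat primary cortical cultures was measured by RNA-seq in 3 libraries of cultures given amlexanox at 25 µM for 48 h (Amlexanox) and 3 libraries of cultures labelled Control. These 6 libraries, of 48 in the series, were taken by their treatment labels, with no measured value used, and 15890 of the 30211 genes listed passed a filter on low values and were tested. The cells came from the cortex of Sprague-Dawley rat fetuses aged 18 days and were used at DIV 21 (days in vitro). The Control cultures had no compound, no Tat and no cocaine according to their label, which does not say whether they were given the solvent of the compounds. Neither group carried a transgene or a deletion according to the labels. The groups set beside them had 3 libraries each. They were cultures given Tat, the transactivator protein of HIV-1 (6 ng/mL for 48 h), without and with amlexanox at 25 µM (Tat, Tat-Amlexanox), and cultures given Tat followed by cocaine (25 µM for 24 h), likewise (Tat-Cocaine, Tat-Cocaine-Amlexanox). The others were cultures given 4OI (4-octyl itaconate, 250 µM), Tazemetostat (3 µM) or Senicapoc (1 µM) for 48 h. The labels name the cells as neurons, while the growth protocol describes mixed cultures. No source used here says whether the 3 libraries of a group came from separate preparations. The p-values measure the spread within groups, estimated over all 48 libraries of the series, which may be technical.

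TBK1 and IKKε pass signals from sensors of foreign nucleic acid to IRF3, the transcription factor that switches on type I interferon, and to parts of the NF-κB pathway. Amlexanox also binds S100A13, a protein needed for the release of the growth factor FGF1, and inhibits phosphodiesterases of the PDE4 kind, which break down cAMP. Among the cells that can grow in cortical cultures, ependymal cells carry motile cilia, which the regulator Gmnc brings about by switching on Mcidas, Ccno and, further on, the genes of the ciliary axoneme and its dynein motors. Astrocytes supply water and ion transport, lactate and serine to neurons.

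The Amlexanox libraries held 23.1 to 27.6 M reads on genes and the Control libraries 19.9 to 25.5 M. All values are CPM after TMM scaling by the authors, and changes are log2 fold changes on the scale of log2(CPM + 0.5), which understates those of low genes. Markers of several cell types were present. The summed level of 24 neuron markers was 4415 to 7040 CPM in Control and 5973 to 7649 CPM in Amlexanox, and that of 16 astrocyte markers 13660 to 15760 and 8886 to 17840 CPM. Markers of vessel walls, a list led by Tagln and Acta2 of smooth muscle, summed to 1015 to 1287 CPM in Control and 171 to 739 CPM in Amlexanox, with 1 of 14 called (Tagln), and their part in the results was not tested. Replicates 1 and 3 were the least alike in both groups, with a Pearson correlation on the log2 scale of 0.976 in Control and 0.978 in Amlexanox. Counts are also given without replicate 3 of both groups, which many of the changes below leaned on.

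In Amlexanox cultures most tested genes of motile cilia and 8 of 16 astrocyte markers were lower, and 7 of 19 immediate-early genes were higher, than in Control. With 1 estimate of the spread from all 48 libraries, limma called 1804 of 15890 genes at a Benjamini-Hochberg FDR under 0.05, which is 11.4% of the genes tested. Of these, 596 were higher (3.75%) and 1208 lower (7.6%) with amlexanox. The falls were deeper than the rises, with medians of -0.83 and 0.39 on the log2 scale, beside a median of 0.01 over all genes tested. Falls of at least 1 log2 numbered 471 (2.96%) and rises 36 (0.227%), and an unadjusted p under 0.05 was found in 26.1% of the genes tested. The 3 Amlexanox libraries lay outside the range of Control in 1429 of the called genes, 8.99% of those tested, above it in 451 (2.84%) and below it in 978 (6.15%). Over all genes tested, called or not, they lay above it in 9.69% and below it in 10.9%. The number of calls rested on replicate 3 of both groups. It was 160 without Amlexanox replicate 3, 417 without Control replicate 3 and 16 without both, 3003 without Amlexanox replicate 1, 1123 without Control replicate 2, and 3603 without both replicates 1. A fit to the 6 libraries alone called 0 genes with limma, with an unadjusted p under 0.05 in 2423 of 15012 genes (16.1%) and a lowest FDR of 0.0975. The standard errors (SE) given below come from all 48 libraries. In the fit to the 6 libraries the SE was larger for Ltbp2 (0.88 against 0.54) and Gmnc (0.51 against 0.34). It was smaller for LOC299282 (0.20 against 0.54).

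**Figure D1:**
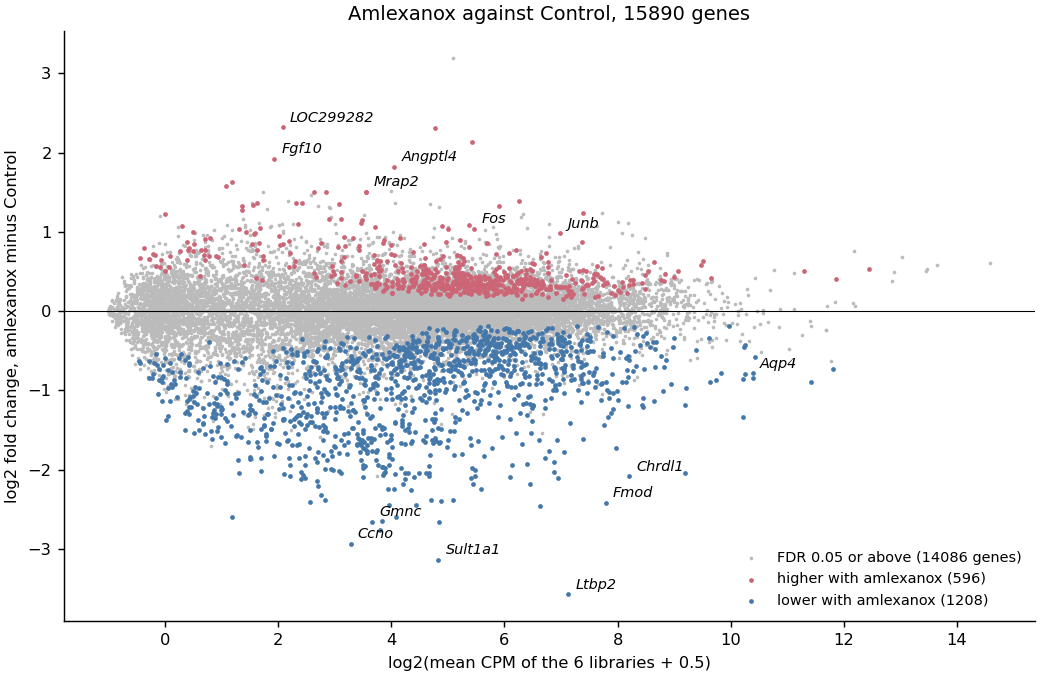
Each point is 1 of 15890 genes, with the mean level over the 6 libraries on the x axis (log2 of CPM + 0.5) and the log2 fold change, Amlexanox minus Control, on the y axis. The 1208 called falls (blue) reach -3.57 and the 596 called rises (red) reach 2.33, and most genes (grey) did not pass an FDR of 0.05.

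Genes of ependymal cells fell as a group. Of 16 markers listed 14 were tested, of which 11 were lower and 0 higher, beside 7.6% lower among all genes, and the median of the 14 was -1.71. Gmnc, the regulator of the ciliated fate, was at 19.9, 14.7 and 27.9 CPM in Control and at 6.93, 2.10 and 1.32 CPM in Amlexanox. Its change of -2.66 ± 0.34 (SE) had an FDR of 3.46e-05 in limma. The groups did not overlap, and the call of Gmnc held without each of the 6 libraries in turn. Pifo, which is needed for the disassembly of cilia, was at 10.2, 17.1 and 22.9 CPM in Control against 5.05, 6.79 and 2.50 CPM. Dynlrb2, a light chain of dynein, was at 37.5, 49.5 and 127 CPM against 27.1, 17.4 and 7.03 CPM. Dnah5, a heavy chain of the outer dynein arms of the axoneme, was at 9.51, 15.4 and 27.8 CPM against 6.31, 4.11 and 2.02 CPM. Their changes were -1.73 ± 0.39, -2.01 ± 0.47 and -1.95 ± 0.46, with limma FDR of 0.00439, 0.00507 and 0.00546. In each of these 3 genes every Amlexanox library was below every Control library, and the highest Control and the lowest Amlexanox value came from replicate 3. Of the other 7 genes called, Ccdc153, Cfap126, Tmem212, Tekt1, Dnah11 and Rsph1 had no overlap either, and Ccno had one, since Amlexanox replicate 1 (5.89 CPM) was above Control replicate 1 (5.06 CPM). Mcidas, which acts with Gmnc, was at 0.153, 0.834 and 4.54 CPM in Control and at 1.00, 0.0776 and 0.0348 CPM in Amlexanox, with an FDR of 0.236. The other listed genes called in neither direction were Spag6 and Ttr, and Foxj1 and Mia were not tested. The calls numbered 1 without Amlexanox replicate 3 and 1 without Control replicate 3, and without both 1 gene was called (Gmnc) with a median of -1.02. In the fit to the 6 libraries 0 were called by limma, with an unadjusted p under 0.05 in 11 of 13.

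**Figure D2:**
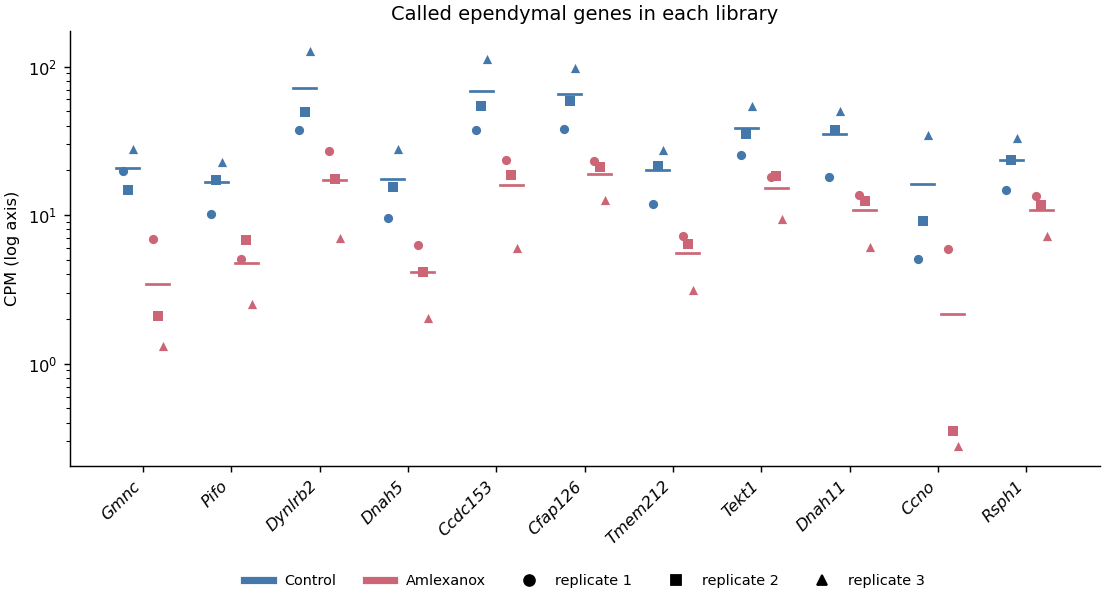
The level in CPM (log axis) of the 11 ependymal markers called lower, ordered by FDR, in the 3 Control (blue) and the 3 Amlexanox libraries (red), with the symbol giving the replicate and the bar the mean. Amlexanox libraries lie below all Control libraries in 10 of the 11 genes, and replicate 3 is the highest Control library in each.

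Families of axonemal genes, taken by symbol after the values had been seen, moved the same way. They share Cfap126, Dnah5 and Dnah11 with the ependymal list, so they are not separate from it. Of 25 tested genes named Cfap and a number (proteins of cilia and flagella) 20 were lower and 0 higher, with a median of -1.55. Over all genes tested 7.6% were called lower and 3.75% higher. Of 9 axonemal dynein heavy chains (Dnah) 8 were lower, with a median of -1.95. Among them Dnah6, an inner-arm heavy chain, was at 15.4, 31.4 and 62.5 CPM in Control and at 8.19, 6.21 and 2.89 CPM in Amlexanox. Its call was lost without Amlexanox replicate 3 and without Control replicate 3.

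The summed level of the ependymal markers was 228, 338 and 623 CPM in the Control libraries and 152, 120 and 58.5 CPM in the Amlexanox libraries. The spread within each group was thus wide, and replicate 3 was the highest Control and the lowest Amlexanox library. Across the 16 groups of the series the median of the 3 libraries, as mean log2 level of the markers, was 2.32 in Amlexanox and between 2.66 and 3.88 in the others, with 3.73 in Control. Single libraries of 3 other groups lay inside the range of the Amlexanox libraries in summed level, replicate 1 of Tat-Cocaine (118 CPM), replicate 2 of Senicapoc (132 CPM) and replicate 1 of Tat-Senicapoc (148 CPM). In mean log2 level these lay inside the Amlexanox range (1.61 to 2.86) too, and so did libraries of further groups. They were Tat replicate 3 (2.80), Tat-Cocaine replicate 2 (2.66), Tat-Tazemetostat replicate 3 (2.65), Tat-4OI replicate 1 (2.72) and Tat-Cocaine-Senicapoc replicate 3 (2.66). In bulk samples fewer cells of a type and less RNA per cell cannot be told apart, and the share of ependymal cells in the cultures was not tested.

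**Figure D3:**
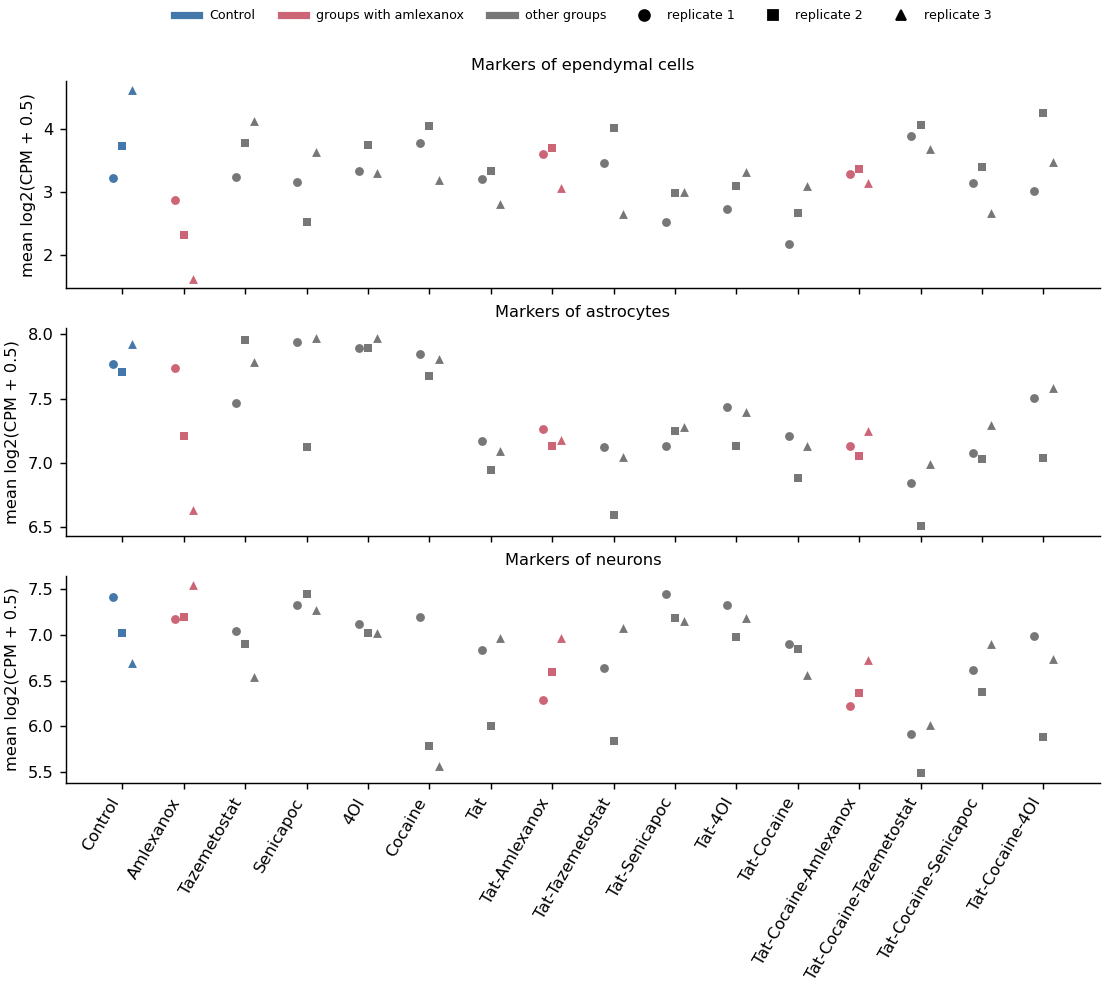
Mean log2(CPM + 0.5) of the markers of ependymal cells, astrocytes and neurons in each of the 48 libraries, by group, with Control in blue, groups with amlexanox in red and the symbol giving the replicate. Ependymal markers lie lower in Amlexanox (1.61 to 2.86) than in Control (3.21 to 4.62), astrocyte markers overlap between these groups, and so do neuron markers.

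Promoters were read for the genes that moved together, as the 250 bases before the RefSeq start of each gene (GRCr8), and 9 motifs were searched on both strands. A promoter was found for 8 of the 11 called ependymal genes, for 25 of the 28 called Cfap and Dnah genes and for 6 of the 7 called immediate-early genes, and for 11225 of the genes tested. The X-box, the site of the RFX factors of ciliated cells, was in 3 of the 25 Cfap and Dnah promoters (12.0%), in 1 of the 8 ependymal ones (Ccno), in 3.25% of those of all called falls, in 1.15% of those of genes tested and in 1.11% of all 27457 promoters. GTTGCC, one form of its left part, was in 14.4% of the promoters of called falls, in 10.8% of those of called rises, in 10.2% of those of genes tested and in 9.9% of all promoters. The forkhead motif TGTTTAC was in 0 of the 25, in 1.98% of the promoters of genes tested and in 3.25% of all. The cAMP response element, TGACGTCA, was in 6.53% of the promoters of called rises, in 1.28% of those of called falls, in 2.79% of those of genes tested and in 1.7% of all. Its core, TGACG, which the full element contains, was in 6 of the 6 immediate-early promoters, in 33.8% of those of called rises and in 19% of all promoters, while genes tested at all held it in 26.7%. The CArG box, the site of serum response factor, was in 2 of the 6, in 1.17% of the promoters of genes tested and in 1.5% of all. TGACTCA was in 2.93% of the promoters of called rises and 2.78% of those of called falls, the interferon-stimulated response element in 2.03% and 2.44%, and the NF-kB site in 8.33% and 7.89%, beside 3.14%, 2.59% and 8.65% of those of genes tested and 3.98%, 3.29% and 6.41% of all promoters. These matches are a description of letters, and no binding was measured.

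The promoters of Ccno and Cfap44 are shown because they hold the X-box, and those of Ier2 and Dusp5 because they hold the cAMP response element or the CArG box, all 4 chosen after the search. Capitals mark the X-box in Ccno and Cfap44, TGACGTCA in Ier2, and 2 CArG boxes followed by TGACG on the other strand in Dusp5. Each runs 5′ to 3′ on the strand of the gene and ends at the base before its start. They lie at chr2:46363824-46364073 (plus strand), chr11:69789906-69790155 (minus strand), chr19:40399123-40399372 (plus strand) and chr1:262543524-262543773 (plus strand) of GRCr8.
Ccno: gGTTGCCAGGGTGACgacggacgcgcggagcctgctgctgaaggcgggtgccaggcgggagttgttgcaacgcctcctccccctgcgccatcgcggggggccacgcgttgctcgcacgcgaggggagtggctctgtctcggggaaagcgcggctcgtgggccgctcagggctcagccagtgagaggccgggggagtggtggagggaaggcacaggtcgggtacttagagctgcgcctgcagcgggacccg
Cfap44: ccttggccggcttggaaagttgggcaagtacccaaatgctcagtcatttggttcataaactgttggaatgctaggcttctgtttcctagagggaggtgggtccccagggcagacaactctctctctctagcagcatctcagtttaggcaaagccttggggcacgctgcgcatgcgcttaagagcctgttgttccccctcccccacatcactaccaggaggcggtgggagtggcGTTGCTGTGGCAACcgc
Ier2: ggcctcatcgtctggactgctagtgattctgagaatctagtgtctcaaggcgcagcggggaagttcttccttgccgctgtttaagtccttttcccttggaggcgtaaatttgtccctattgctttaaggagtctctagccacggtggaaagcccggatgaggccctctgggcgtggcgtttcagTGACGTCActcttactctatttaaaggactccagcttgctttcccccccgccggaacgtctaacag
Dusp5: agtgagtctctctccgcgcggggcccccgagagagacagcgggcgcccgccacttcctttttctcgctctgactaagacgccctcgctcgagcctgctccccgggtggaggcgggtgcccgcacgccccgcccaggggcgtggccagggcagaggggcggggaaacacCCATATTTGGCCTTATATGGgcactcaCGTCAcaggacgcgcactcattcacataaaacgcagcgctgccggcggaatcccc
The X-box of Ccno starts 249 bases before the start of the gene and that of Cfap44 17 bases before it. Cfap44, whose protein belongs to the axoneme, was at 31.9, 64.8 and 72.6 CPM in Control and at 11.2, 15 and 5.57 CPM in Amlexanox, so that the groups did not overlap. The element of Ier2 starts 66 bases before the gene, and the CArG boxes of Dusp5 82 and 72 bases before it.

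The 12 largest falls with no overlap between the groups included genes outside the cilium. Ltbp2, an extracellular matrix protein of elastic fibres, was at 144, 211 and 378 CPM in Control and at 81.3, 12.8 and 5.88 CPM in Amlexanox, a change of -3.57 ± 0.54 with a limma FDR of 0.000109. Sult1a1, a sulfotransferase of phenols, was at 30.7, 44 and 74.6 CPM against 12.7, 3.36 and 2.50 CPM. Fmod, the matrix proteoglycan fibromodulin, was at 269, 367 and 450 CPM against 133, 77.0 and 28 CPM. In all 3 genes the Amlexanox libraries were spread by more than the Control libraries on the log scale. Others were Bbox1 (the last enzyme of carnitine synthesis), Spata18, Hcrt (the precursor of orexin), Fibin, Gmnc, Dnah6, RGD1564149 and AABR07031193.1, with changes between -2.76 and -2.45. Bbox1, Spata18 and Dnah6 lost their call without Amlexanox replicate 3, and Bbox1 and Dnah6 also without Control replicate 3. Hcrt was low throughout, at 1.38, 5.44 and 3.54 CPM in Control and at 0.125, 0.155 and 0.00 CPM in Amlexanox. AABR07031193.1 was at 35.7, 43 and 65.4 CPM against 14.7, 9.08 and 2.33 CPM.

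Markers of the membranes and epithelia that line the brain were lower in part. Both lists here were written after values had been seen. The cells that made these transcripts were not identified, and whether the fall of astrocyte markers had a part in these falls was not tested. Of 12 tested markers of the leptomeninges 5 were lower and 0 higher, with a median of -0.87, and of 12 of the choroid plexus epithelium 4 were lower and 0 higher, with a median of -0.21, beside 7.6% lower among all genes. With 1 library left out the leptomeninges had 5 calls each time and medians from -1.52 to -0.43, and the choroid plexus list had 1 call without Amlexanox replicate 3. Chrdl1, an inhibitor of BMP signals, was at 422, 508 and 463 CPM in Control and at 200, 116 and 56.0 CPM in Amlexanox, with a change of -2.08 ± 0.28 and a limma FDR of 3.46e-05. Folr1, a folate receptor of the choroid plexus, was at 28.6, 45.7 and 70.0 CPM against 15.3, 9.50 and 3.62 CPM. Ttr, the transthyretin that defines the choroid plexus, was at or under 1.45 CPM in all 6 libraries, and was not called (FDR 0.61). The markers of fibroblasts and meninges fixed earlier had 1 of 13 lower (Ogn) and a summed level of 399 to 1205 CPM in Control and 342 to 684 CPM in Amlexanox.

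Astrocyte markers were lower in 8 of 16 and higher in 0, beside 7.6% lower and 3.75% higher among all genes, with a median of -0.74. Aqp4, the water channel of astrocyte endfeet, was at 1700, 1676 and 1639 CPM in Control and at 1280, 1139 and 627 CPM in Amlexanox, a change of -0.78 ± 0.16 with a limma FDR of 0.00182. Slc4a4, a sodium bicarbonate cotransporter, was at 81.7, 85.7 and 85.3 CPM against 54.0, 47.3 and 36.3 CPM. Aldh1l1, an enzyme of folate metabolism, was at 21.0, 28.6 and 26.2 CPM against 16.2, 13.8 and 8.97 CPM. In these genes the Control libraries lay close together and no Amlexanox library reached them. Aldoc, the aldolase of astrocytes, was at 1121, 1043 and 910 CPM against 698, 623 and 377 CPM. Ntsr2, Gja1, Sox9 and S100b made up the 8, of which Sox9 and S100b overlapped between the groups. Other defining astrocyte genes did not pass the test. Gfap, the intermediate filament of astrocytes, was at 4447, 4044 and 4756 CPM in Control and at 7351, 4677 and 2872 CPM in Amlexanox (FDR 0.894), and Glul, glutamine synthetase, at 1925, 1661 and 1981 CPM against 2829, 2526 and 2418 CPM (FDR 0.162). Without Amlexanox replicate 3 limma called 0 of the 16 astrocyte genes, 7 of which had an unadjusted p under 0.05, and without Control replicate 3 it called 4. As mean log2 level the group median of the markers was 7.21 in Amlexanox and 7.77 in Control. It was 7.90 in 4OI, 7.78 in Tazemetostat and 7.94 in Senicapoc, and lower than in Amlexanox in Tat (7.09) and Tat-Cocaine (7.13). Limma called 10 of the 16 lower than in 4OI, 7 than in Tazemetostat and 0 than in Senicapoc, with median differences of -0.69, -0.53 and -0.52. Senicapoc replicate 2 (7.12) lay inside the Amlexanox range (6.63 to 7.74).

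Some genes of metabolism and of stress responses were among the falls, and the cells they came from were not identified. Over all genes tested 7.6% were called lower and 3.75% higher, beside which the counts of these lists stand. Of 22 tested ATF4 targets 3 were lower and 0 higher, while 15 of the 22 were above 0 and the median was 0.31. The called genes were Phgdh (235 ± 37.6 CPM in Control and 142 ± 60.7 CPM in Amlexanox, mean ± SD, n = 3) and Psat1 (345 ± 109 and 171 ± 98.7 CPM), which make serine, and the amino acid transporter subunit Slc3a2. Of 23 Nrf2 targets 4 were lower and 0 higher. Gstm1, a glutathione transferase, was at 435, 491 and 474 CPM in Control and at 267, 284 and 136 CPM in Amlexanox, with a limma FDR of 9.05e-05. Gsta1, Gclc and Ephx1 were the others, while the median of the list was -0.11. Slc2a1, the glucose transporter, was at 193, 201 and 258 CPM against 150, 116 and 85.6 CPM, and Hk1 and Aldoc were the other called genes among 19 of glycolysis. Of 24 genes of cholesterol synthesis 3 were lower (Fdft1, Hmgcs1 and Sqle) with a median of -0.20. Of 29 fatty acid and PPAR genes 6 were lower, all of oxidation, ketogenesis or lipid droplets, and 2 were higher, Angptl4 and Fabp4. Of 16 heat shock genes 3 were lower, Cryab, Hspb8 and Hspa4l, and Cryab, a small chaperone, was at 75.7, 72.9 and 103 CPM in Control and at 36.2, 23.1 and 18.1 CPM in Amlexanox. Without Amlexanox replicate 3 limma called 0 ATF4, 0 cholesterol and 0 fatty acid and PPAR genes, with an unadjusted p under 0.05 in 4, 2 and 6, and 1 Nrf2 target and 1 gene of glycolysis. Without Control replicate 3 it called 0 ATF4 targets (8 at that p), 0 fatty acid and PPAR genes (8 at that p) and 2 Nrf2 targets. Without Control replicate 2 it called 1 cholesterol gene, 2 Nrf2 targets and 4 fatty acid and PPAR genes, and without Amlexanox replicate 2 it called 3 of the last list. Without Amlexanox replicate 1 it called 10 ATF4 targets (6 higher and 4 lower), 5 cholesterol genes, 13 fatty acid and PPAR genes, 5 of glycolysis and 5 of heat shock. Astrocyte markers moved with these genes, and their part in the changes was not tested.

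A short list of genes passed without replicate 3 of both groups. Of the 16 genes called in this setting, chosen by it after the values had been seen, 14 were lower and 2 higher, 16 were also called in all 6 libraries and 15 without each library in turn. Akr1c19, an aldo-keto reductase, was at 27, 24.3 and 25.1 CPM in Control and at 11.2, 7.53 and 2.12 CPM in Amlexanox. Sema3b, a secreted semaphorin, was at 97.9, 95.4 and 96.4 CPM against 49.2, 42.6 and 24.9 CPM. Hspb6, a small heat shock protein, was at 36.5, 42.7 and 34 CPM against 19.9, 21.0 and 15.7 CPM. Idh2, the mitochondrial isocitrate dehydrogenase that makes NADPH, was at 151, 162 and 159 CPM against 92.9, 85.9 and 64.7 CPM. In these genes the Control libraries lay close together and above all Amlexanox libraries. Cntf, a trophic factor made by astrocytes, was at 19, 25.9 and 48.7 CPM against 9.81, 7.0 and 4.21 CPM. The other falls were Gmnc, Chrdl1, Gstm1, Cryab, Tagln, Pgm5, Ccl17, AABR07028488.1 and AABR07031193.1. The rises were Trmt6, a subunit of a tRNA methyltransferase, at 17, 16.8 and 19.1 CPM in Control and at 22.6, 26.3 and 26.9 CPM in Amlexanox, and Matn2, a matrix protein, at 10.1, 9.61 and 17.2 CPM against 20.2, 21.5 and 17.6 CPM.

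Rises were fewer and smaller. Of the 596 called 421 were under 0.5 log2. Fgf10, a ligand of FGF receptors, was at 1.38, 1.52 and 0.499 CPM in Control and at 6.68, 5.39 and 4.42 CPM in Amlexanox, a change of 1.93 ± 0.34 with a limma FDR of 0.000599. LOC299282 had the largest rise, from 0.882, 1.18 and 0.681 CPM to 6.47, 5.70 and 7.47 CPM (2.33 ± 0.54, limma FDR 0.00525), and it had the lowest FDR of all genes in the fit to the 6 libraries (0.0975). The groups were far apart in both genes, at low levels. Libraries of other groups reached these levels. Fgf10 was at 5.02 to 8.69 CPM in Tat, 5.96 CPM in Tazemetostat replicate 1 and 5.30 CPM in Senicapoc replicate 2. LOC299282 was at 85.85 to 201 CPM in Tat and 6.455 CPM in Tazemetostat replicate 1. Both genes were called higher than in 4OI (limma FDR 0.00157 and 0.00034). Neither was called against Tazemetostat (0.0991 and 0.245) or Senicapoc (0.42 and 0.267). Angptl4, a secreted inhibitor of lipoprotein lipase, was at 5.18, 10.1 and 4.68 CPM against 12.7, 34.3 and 29.5 CPM. Dio2, which turns thyroxine into its active form, was at 4.22, 5.25 and 1.27 CPM against 8.14, 11.7 and 9.81 CPM. Neurod6, a transcription factor of excitatory cortical neurons, was at 67.2, 39.7 and 23.2 CPM against 81.3, 91.1 and 154 CPM. The other 7 of the 12 largest rises without overlap were Il11, Mrap2, Adamts1, AC118957.1, Clec7a, Grp and Thbs4, with changes from 1.36 to 1.58. Among them Clec7a, the beta-glucan receptor of myeloid cells, was at 1.88, 2.01 and 2.54 CPM against 3.34, 8.34 and 8.73 CPM. Of these 12 rises that of Fgf10 was called without each library in turn, and the other 11 lost their call without Amlexanox replicate 3. Angptl4, Mrap2, Adamts1, AC118957.1, Dio2, Neurod6, Grp and Thbs4 also lost it without Control replicate 3, and Angptl4, Adamts1, AC118957.1, Dio2 and Neurod6 without Amlexanox replicate 2. Neurod6 and Thbs4 lost it without Control replicate 2 as well, and Thbs4 without Amlexanox replicate 1. With 1 library left out the change of Dio2 lay between 0.98 and 1.83 and that of Neurod6 between 1.01 and 1.77. Falls of over 2 log2 were called in 60 genes (0.378%) and rises in 3 (0.0189%). Cartpt and Ptx3 were among these rises and were left out of the 12 since their libraries overlapped. Cartpt, a neuropeptide, was at 8.47, 6.37 and 3.77 CPM in Control and at 8.23, 37.3 and 97.8 CPM in Amlexanox.

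Immediate-early genes, which neurons and glia switch on within minutes of a stimulus, were higher in 7 of 19 and lower in 0, beside 3.75% higher among all genes, with a median of 0.64. Fos, a subunit of AP-1, was at 34, 29.5 and 22.2 CPM in Control and at 66.4, 49.7 and 60.5 CPM in Amlexanox, a change of 1.04 ± 0.19 with a limma FDR of 0.000599. Junb, a partner of Fos, was at 91.7, 112 and 55.1 CPM against 150, 155 and 189 CPM. Egr1, a zinc finger factor, was at 32.1, 36 and 41.1 CPM against 72.2, 64.7 and 62.0 CPM. The groups did not overlap in these genes, and Fos, Junb and Egr1 were called without each library in turn. Ier2 was at 21.9, 24.8 and 16.8 CPM against 28.7, 35.2 and 34.9 CPM, with a change of 0.64 ± 0.14 and a limma FDR of 0.00252. Dusp5, Nr4a1 and Fosl1 were the others called. Other genes of the list did not pass. Arc was at 12.2, 9.90 and 13 CPM in Control and at 46, 9.54 and 11.5 CPM in Amlexanox (FDR 0.587), and Npas4 at 10.9, 6.96 and 4.77 CPM against 24.8, 5.31 and 16.9 CPM (FDR 0.405). Of 16 late activity-regulated genes limma called 0, with a median of 0.53 and 15 of 16 above 0. Of the 19 immediate-early genes limma called 4 without Amlexanox replicate 3 and 3 without Control replicate 3. Without both 0 of the 19 immediate-early genes were called by limma, 4 having an unadjusted p under 0.05, and the median was 0.43.

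**Figure D4:**
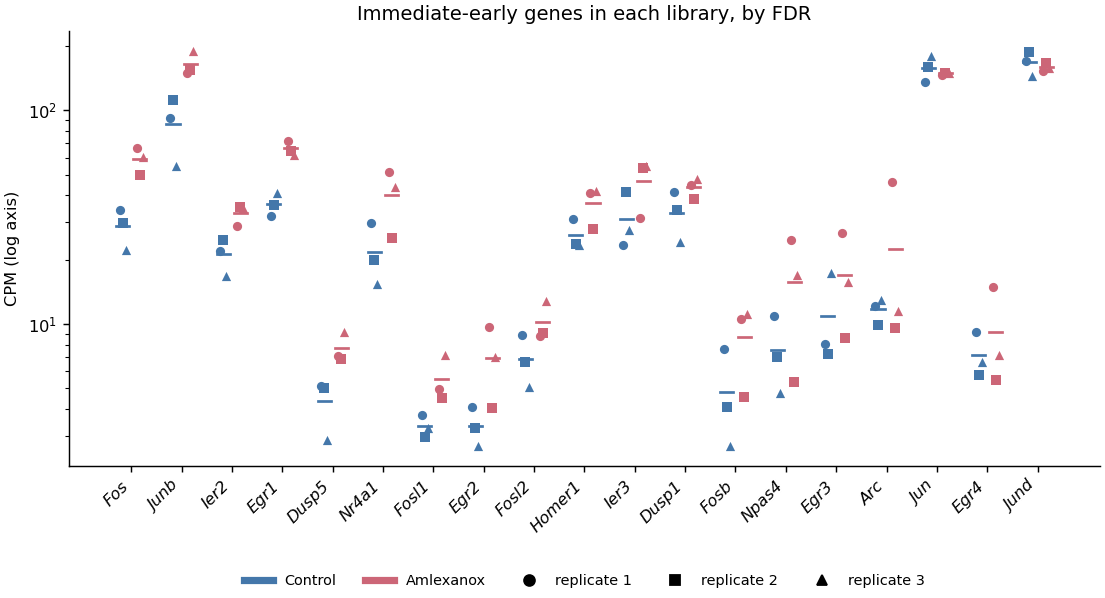
The level in CPM (log axis) of 19 immediate-early genes, ordered by FDR, in the 3 Control (blue) and the 3 Amlexanox libraries (red), with the symbol giving the replicate and the bar the mean. The first 5 genes do not overlap between the groups, while Arc is high in Amlexanox replicate 1 alone (46 CPM).

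Markers of neurons did not pass the test in either direction. Of 23 tested limma called 0, with a median of 0.23 and 21 of 23 above 0. Stmn2, a tubulin-binding protein of growing neurites, was at 466, 372 and 304 CPM in Control and at 457, 490 and 642 CPM in Amlexanox (FDR 0.137). Oligodendrocyte markers varied within each group, with a summed level of 1833, 872 and 346 CPM in Control and 1667, 1015 and 380 CPM in Amlexanox, and 0 of 15 were called by limma. Markers of macrophages and myeloid activation had a summed level of 7854 to 8281 CPM in Control and 10380 to 11190 CPM in Amlexanox, with 1 of 26 called (Clec7a). Of the 26, 11 were above and 15 below 0, with a median of -0.03, so most members did not share the rise of the sum. Of 13 homeostatic microglia markers 1 was lower, Sall1, and P2ry12, a purine receptor that defines these cells, was at 10.1, 40.01 and 19.97 CPM against 6.60, 14.1 and 6.90 CPM (FDR 0.195).

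The compound's targets were measured as transcripts only. Tbk1 was at 36.2, 35.8 and 33.2 CPM in Control and at 34.7, 41 and 41.7 CPM in Amlexanox (FDR 0.153), and Ikbke, which encodes IKKε, at 5.10, 7.11 and 7.17 CPM against 5.30, 4.50 and 5.22 CPM (FDR 0.418). S100a13 was at 61.6, 41.5 and 76.1 CPM against 81.7, 35.8 and 19.3 CPM (FDR 0.345). None of these 3 was called, and the groups overlapped in each. Fgf1 was lower, at 11.1, 17.9 and 26.8 CPM against 9.86, 3.76 and 2.92 CPM (-1.76 ± 0.41, limma FDR 0.00498). Grk5, a kinase of G protein-coupled receptors that amlexanox also inhibits, was higher, at 14.5, 14.2 and 13 CPM against 19.8, 17.8 and 22.4 CPM (0.51 ± 0.11, limma FDR 0.00256). Both lost their call without Amlexanox replicate 3, and Fgf1 also without Control replicate 3. Of 20 phosphodiesterases limma called 0, and Pde4a, Pde4b and Pde4d had changes of -0.06, 0.47 and 0.34 with FDR of 0.801, 0.23 and 0.405. Targets of cAMP and glucocorticoids were higher in 3 of 22 (Crem, Nr4a1 and Rgs2) and lower in 0, beside 3.75% higher among all genes, with a median of 0.40. With 1 library left out the median lay between 0.20 and 0.59, and limma called 0 of the 22 without Amlexanox replicate 3, Control replicate 2 or Control replicate 3, with 2, 6 and 2 at an unadjusted p under 0.05.

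Innate immune genes showed few calls. Over all genes tested 7.6% were called lower and 3.75% higher, beside which the counts of these lists stand. Of 28 interferon-response genes 3 were lower, Cmpk2 and Ddx58 among them, with a median of -0.59 and 25 below 0. Mx1, an antiviral protein, was at 12.5, 502 and 59.9 CPM in Control and at 37.8, 91.0 and 39.1 CPM in Amlexanox (FDR 0.752). Control replicate 2 was the highest of the 6 libraries in each of the 28. Without it limma called 0 of the 28, 0 of them had an unadjusted p under 0.05, and the median was 0.20, above 0. Without Control replicate 3 it also called 0 (3 at an unadjusted p under 0.05), without Amlexanox replicate 3 likewise 0 (1 at that p), and without Control replicate 1 it called 16. Of 21 NF-κB genes and 32 cytokines and chemokines limma called 0, with medians of 0.04 and -0.03. The TBK1-IKKε pathway had 1 of 19 lower (Ddx58). The complement genes C1r and C1s were lower, at 263, 520 and 423 CPM against 229, 193 and 108 CPM for C1r.

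The other lists had 0 to 4 called genes each. Of 23 genes of neural progenitors and the cell cycle 3 were lower (Sox2, Aurkb and Cdk1), beside 7.6% lower among all genes, with a median of -0.50. Limma called 0 of the 23 without Amlexanox replicate 3 and 0 without Control replicate 3 (3 and 2 at an unadjusted p under 0.05), 1 without either replicate 2 in turn and 6 without Control replicate 1, and the median lay between -0.84 and -0.32. Of 26 matrix and collagen genes 3 were lower (Timp3, Col12a1 and Col11a1), with a median of -0.40, and of 24 genes of Akt, mTOR and insulin signalling 3 (Deptor, Foxo1 and Irs1). Of 21 genes of reactive astrocytes 2 were higher (Ptx3 and Clcf1) and 2 lower (Cd109 and Vim). Mitochondrially encoded genes whose symbols begin with Mt- were higher in 2 of 13 (Mt-nd2 and Mt-atp8), with a median of 0.38. Those were also the 2 called among 26 of respiration. Single genes were called among 18 of antigen presentation (RT1-Da, higher), 16 p53 targets (Btg2, higher), 14 AhR targets (Aldh3a1, lower), 18 hypoxia targets (Slc2a1, lower), 7 of zinc and metallothioneins (Mt3, lower) and 11 S100 proteins (S100b, lower). Of 20 genes of FGF signalling Fgf10 was higher and Fgf1 lower, and of 22 complement genes Cd55 was higher beside C1r and C1s. Limma called 0 of 16 ER stress genes, 0 of 27 of autophagy and the lysosome, 0 of 10 LXR targets and 0 of 8 of oligodendrocyte precursors, with medians from -0.05 to 0.23. Without Amlexanox replicate 3 limma also called 0 genes of reactive astrocytes (5 at an unadjusted p under 0.05), of Akt, mTOR and insulin signalling (3), of respiration (6) and of complement (5), and 1 matrix gene.

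**Figure D5:**
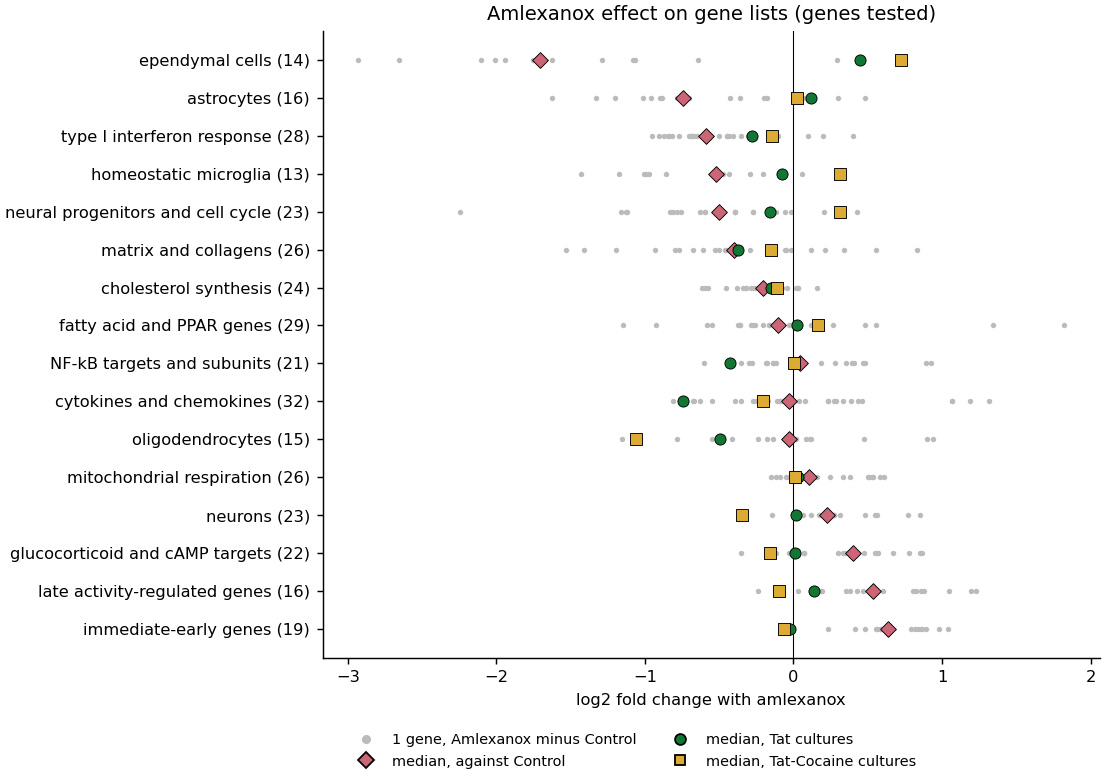
Grey points are the log2 fold changes of single genes, Amlexanox minus Control, in 16 lists, with the number tested in brackets. The symbols are the list's median in Control (red), Tat (green) and Tat-Cocaine cultures (yellow), which for ependymal cells are -1.71, 0.45 and 0.72 and for immediate-early genes 0.64, -0.02 and -0.06.

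In cultures given Tat, amlexanox was set against Tat alone to ask whether the same changes appear there. Limma called 133 genes (0.837%) in Tat cultures, 64 higher (0.403%) and 69 lower (0.434%), and 147 (0.925%) in Tat-Cocaine cultures, 55 higher (0.346%) and 92 lower (0.579%). These comparisons have no library in common with that of Amlexanox and Control. Of the 596 rises 380 (63.8%) were also above 0 in Tat cultures, where 46% of all genes were, 18 were called higher and 0 lower. In Tat-Cocaine cultures 329 of the rises (55.2%) were above 0, beside 52.7% of all genes, and 3 were called higher and 2 lower. Ranbp2, a nuclear pore protein, Tmf1, a Golgi protein, and Bzw1, a regulator of translation, were called higher in all 3 kinds of culture, with changes of 0.32, 0.33 and 0.36 in Control. Of the 1208 falls 592 (49.0%) were below 0 in Tat cultures, where 54.1% of all genes were, and 7 were called lower. In Tat-Cocaine cultures 325 of the falls (26.9%) were below 0, beside 47.3% of all genes, and 3 were called lower and 2 higher. The 133 calls in Tat cultures fell to 1 when Tat replicate 2 was left out, to 14 when its replicate 3 was, to 22 without Tat-Amlexanox replicate 3 and, in limma, 0 without Tat-Amlexanox replicate 1 (1158 at an unadjusted p under 0.05). The 147 in Tat-Cocaine cultures were 12 and 5 without Tat-Cocaine replicates 1 and 2, 7 and 15 without Tat-Cocaine-Amlexanox replicates 1 and 3, and 1317 without Tat-Cocaine replicate 3. Itga7, a laminin receptor subunit, was lower in Tat cultures too (-1.13, limma FDR 0.0167, beside -0.80 against Control).

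The difference of the effect itself was called in 292 genes (1.84%) for Control against Tat cultures, with the higher value in Control cultures in 0.428% and the lower in 1.41%. For Control against Tat-Cocaine cultures it was called in 1481 (9.32%), with 2.87% higher and 6.45% lower. Of the ependymal genes 6 of 14 differed in the first and 11 of 14 in the second, all with the lower value in Control cultures. The starting levels differed between these cultures. Gmnc was at 1.12 to 1.61 CPM in Tat and at 1.54 to 1.79 CPM in Tat-Amlexanox, all below the lowest Control library (14.7 CPM). Angptl4 was at 229 to 456 CPM in Tat and at 119 to 179 CPM in Tat-Amlexanox, far above the 12.7 to 34.3 CPM of Amlexanox. Fos was at 32.2 to 42.5 CPM in Tat and at 36.6 to 44.7 CPM in Tat-Amlexanox. The number with a called difference for Tat cultures was 0 in limma without Amlexanox replicate 3 and 0 without Control replicate 3, with an unadjusted p under 0.05 in 1864 and 1727 genes. It was 1603 without Amlexanox replicate 1, 785 without Control replicate 1, 124 without Amlexanox replicate 2 and 178 without Control replicate 2. Leaving out Tat replicate 2 gave 38, Tat replicate 3 gave 51, and it was 27 without Tat-Amlexanox replicate 1 and 76 without Tat-Amlexanox replicate 2. For Tat-Cocaine cultures it was 36 without Amlexanox replicate 3, 169 without Control replicate 3, and 477, 457, 760 and 801 without replicates 1 and 2 of Tat-Cocaine and of Tat-Cocaine-Amlexanox. It was 2946 without Amlexanox replicate 1, 2502 without Control replicate 1 and 2837 without Tat-Cocaine replicate 3.

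Against cultures given another compound, Amlexanox cultures differed in 2450 genes from 4OI (15.4%, with 4.51% higher and 10.9% lower in Amlexanox), in 1407 from Tazemetostat (8.85%, with 2.05% higher and 6.81% lower) and in 7 from Senicapoc (0.0441%, all lower). Without Amlexanox replicate 3 these numbers were 632, 14 and, in limma, 0 (665 at an unadjusted p under 0.05). The number for 4OI was 1428 without 4OI replicate 3. That for Tazemetostat was 927 without Amlexanox replicate 2, 2787 without Amlexanox replicate 1, 2326 without Tazemetostat replicate 1, and 134 and 95 without Tazemetostat replicates 2 and 3. That for Senicapoc was 773 without Amlexanox replicate 1, 749 without Senicapoc replicate 2, 1 without Amlexanox replicate 2 and, in limma, 0 without Senicapoc replicate 1 or 3 (789 and 657 at an unadjusted p under 0.05). The compounds are not analogs of each other and their doses differ. These comparisons use the same Amlexanox libraries as that with Control, so their values are given side by side. Gmnc was lower in Amlexanox than in 4OI by -1.68 ± 0.34, than in Tazemetostat by -2.20 ± 0.34 and than in Senicapoc by -1.96 ± 0.34, with limma FDR of 0.000977, 0.000629 and 0.0123. It was at 9.62 to 10.4 CPM in 4OI, 11.1 to 19.6 CPM in Tazemetostat and 7.66 to 15.5 CPM in Senicapoc. The 7 genes lower than in Senicapoc were Gmnc, Ltbp2, Tagln, Cntf, Cryab, Sema3b and Lmod1. Fos was at 38.3 to 51.3 CPM in 4OI, 49.6 to 50.6 CPM in Tazemetostat and 43 to 48.3 CPM in Senicapoc. All 9 of these libraries were above the 3 of Control, and the Amlexanox libraries (49.7 to 66.4 CPM) overlapped with those of 4OI and Tazemetostat. The differences of Fos from 4OI, Tazemetostat and Senicapoc were 0.34, 0.22 and 0.35, none of them called (FDR 0.218, 0.436 and 0.491). Over the 19 immediate-early genes the medians were 0.08, 0.35 and 0.00, with 1 gene called higher than in 4OI and 0 called against the others by limma.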

How the data were processed

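Polyadenylated RNA from 48 libraries in 16 groups of 3 was sequenced with a strand-marking kit (NEBNext Ultra II Directional). The submitters' processing notes name FastQC, Trim Galore 0.4.5, STAR 2.7.2, SAMtools 1.5, featureCounts and Subread 1.5.3. The notes list the builds mRatBN7.2 and hg38, the study's methods name Rnor_6.0, and no coordinates were taken from the deposited table. The values the authors deposited are CPM after TMM scaling, a normalized signal for 30211 genes, of which 6162 were at 0 in all libraries. Of the values of a library, 85.0 to 87.3% came out as whole reads (tolerance 0.02), so no count test was run. How reads shared by paralogs or overlapping genes were split is not given in the sources used here. The authors' group means and their columns of fold changes, likelihood ratios, p-values and FDR for pairs of groups were not used.

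Genes at 0.5 CPM or more in at least 3 of 48 libraries were tested (15890). In the 6 libraries compared, 0.5 CPM stands for 10.2 to 14.4 reads. limma 3.58.1 (R 4.3.3, Python 3.11.15) was fitted with a trend to log2(CPM + 0.5) in all 48 libraries, 1 mean per group, with Benjamini-Hochberg adjustment over all genes tested and a threshold of 0.05. Differences between the effect in Control and in Tat cultures were contrasts of that fit. The script was tested on simulated data. The genes named were the 12 largest rises and the 12 largest falls called, with a mean of at least 1 CPM in 1 group and no overlap of libraries, 7 target genes, and up to 4 genes of lowest p in each list described. A few genes that met these rules are not reported here. Any other gene named was chosen after its values were seen. The lists and comparisons were chosen with earlier results of these data known, and the leptomeninges and choroid plexus lists, the Cfap and Dnah families, the voom fit and the fits without both replicates 1 or 3 were added after values were seen. Alternatives were another pseudocount, filter, scaling, weighting, block, set of libraries or left-out library. Promoters came from RefSeq (GRCr8).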

Additional observations from a re-analysis of the deposited data

Results flagged for a closer look

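The effect of amlexanox in Control cultures was set against that in Tat cultures by a test of the difference in limma, which called 292 genes, and against that in Tat-Cocaine cultures, which called 1481. A positive value means a higher log2 fold change in Control cultures. Among the largest rises, the difference from Tat cultures was 2.76 for Fgf10 and 3.00 for Angptl4. From Tat-Cocaine cultures it was 2.33 for Fgf10, 2.33 for Angptl4, 1.92 for Il11, 2.20 for Mrap2, 2.86 for Adamts1, 1.58 for Clec7a and 2.58 for Grp. Starting levels differed for several of these genes. In Tat-Cocaine libraries Fgf10 was at 4.11 to 4.90 CPM, Angptl4 at 151 to 358, Mrap2 at 9.86 to 13.75 and Clec7a at 12.9 to 24.65 CPM. These were above all Control libraries, while Il11, Adamts1 and Grp overlapped with Control. The part of the starting level in the differences was not tested.

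Among the largest falls, the matrix and enzyme genes differed in both. From Tat cultures the difference was -3.13 for Ltbp2, -3.14 for Sult1a1, -3.33 for Bbox1 and -2.37 for Fibin, and from Tat-Cocaine cultures -3.51, -3.74, -3.94 and -2.29. Fmod differed from Tat-Cocaine cultures by -1.90. The genes of cilia differed from Tat cultures by -2.83 (Gmnc) and -3.07 (Dnah6), and from Tat-Cocaine cultures by -2.69 (Gmnc) and -3.47 (Dnah6). Spata18 and Hcrt differed by -2.69 and -2.80 from Tat cultures and by -3.03 and -2.63 from Tat-Cocaine cultures. Hcrt was below the pseudocount of 0.5 CPM in every Tat and Tat-Cocaine library, so almost no fall could be seen there. Its differences restate its fall in Control cultures and cannot show whether the effect of amlexanox differed. Gmnc was too low in Tat and Tat-Cocaine libraries to fall there as far as in Control cultures, so its differences are limited in the same way. The genes known by an identifier differed by -2.54 (AABR07031193.1) and -2.86 (RGD1564149) from Tat cultures, and by -2.98 and -3.13 from Tat-Cocaine cultures.

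These differences were larger than the spread between libraries in the fit to all 48, and 0 genes passed in limma when only the 4 groups concerned were fitted, with an unadjusted p under 0.05 in 2147 genes for Tat and 3930 for Tat-Cocaine cultures.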

How the results depend on the processing

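The 1804 genes called against Control were 1802 and 1791 with pseudocounts of 0.1 and 1, 1532 without a filter, 1822 with a minimum of 2 CPM, 1812 with median ratio scaling, 1850 with quantile normalization, 1771 without a trend, 2473 with library weights and 1880 with voom. Of them 1293 were called under each alternative fitted to all libraries, 143 without each library in turn and 138 under both. Fitted to the 2 groups alone, limma called 0 (2423 at an unadjusted p under 0.05). Without both replicates 3 it called 16 and without both replicates 1 it called 3603. Leaving out 1 library gave 160 to 3003 calls against Control, 0 to 178 in Tat and 5 to 1317 in Tat-Cocaine cultures, 0 to 1603 and 36 to 2946 for the differences of the effect, and 632 to 3555 against 4OI, 14 to 2787 against Tazemetostat and 0 to 773 against Senicapoc. Fits to only the groups compared called 0 in Tat (1728 unadjusted), Tat-Cocaine (2714), both differences (2147 and 3930), Tazemetostat (3922) and Senicapoc (789), and 532 for 4OI. Library weights called 3842 in Tat-Cocaine cultures, 794 and 4555 for the differences, 4748 against 4OI, 4414 against Tazemetostat and 3883 against Senicapoc. A pseudocount of 0.1 called 91 in Tat-Cocaine cultures. Without a filter 131 genes differed from Tat cultures and 27 from Senicapoc, and voom called 83 in Tat cultures and 168 for the difference from them. The cause of these shifts was not tested.

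The deviations of same-numbered Amlexanox and Control libraries from their group means had correlations of -0.18, 0.44 and -0.41. With 3 libraries a group and mixed signs, these cannot settle whether the numbers pair the libraries. A replicate block over all libraries called 2434 against Control, 493 in Tat, 338 in Tat-Cocaine, 693 for the difference from Tat, 2413 against Tazemetostat and 14 against Senicapoc. The replicate block with only the groups compared called 0 against Control (1583 unadjusted), 529 in Tat, 0 in Tat-Cocaine (2058), 7 and 0 (3674) for the differences, 1049 against 4OI, 0 against Tazemetostat (2455) and 0 against Senicapoc (1086).

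Of 287 values of the 24 genes with the largest changes under processing alternatives 231 kept their call, 56 lost it and 0 changed sign, and all 24 lost it when only the 2 groups were fitted. With libraries left out 137 of 192 kept it. S100a13 was at 0.10 without both replicates 3 and Pde4a, which lay between -0.15 and 0.039 with 1 library left out, at 0.039 without Amlexanox replicate 2, both of opposite sign to the values given and not called.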

Other observations

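The 21 tested genes whose symbols begin with AY172581, a family taken by symbol after the values were seen, included 7 called higher and 0 lower. Over all genes tested 3.75% were called higher and 7.6% lower. The median of the family was 0.50 in Control cultures, 0.12 in Tat cultures and 0.00 in Tat-Cocaine cultures. The 10 most abundant genes took 10.5 to 13.1% of the CPM in the Amlexanox libraries and 7.45 to 10.3% in Control.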
